A study of Mus musculus with 3 samples.

Results

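The 10 genes described here encode chaperones of the heat shock family: Hspa1a, Hspa1b, Hspa8, Hsph1, Hsp90aa1, Hsp90ab1, Dnaja1, Dnajb1, Hspe1 and Hspd1. They were taken by gene symbol, and all 10 were present in each of the 3 expression tables, among 18214 different gene symbols. The proteins of 8 of them work mainly in the cytosol and nucleus, whereas Hspe1 and Hspd1 form the chaperonin of the mitochondrial matrix, so the name cytosolic fits only the first 8. Chaperones bind unfolded proteins and help them fold. When unfolded proteins build up, as after heat, the transcription factor HSF1 binds heat shock elements, repeats of GAA and TTC, and raises transcription of many of these genes. Hspa8 and Hsp90ab1 are abundant without stress, whereas Hspa1a and Hspa1b are the strongly inducible Hsp70 genes. In microglia, the resident macrophages of the brain, such stress genes are also known to respond to tissue dissociation.

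RNA of single cells was measured in 1 pool of 8 hashed samples, told apart by antibody barcodes (hashtags), from female mice aged 2 to 3 months on a C57Bl/6 background. In naive brain there were 2 CCR2-/- samples and 2 CCR2+/- samples, each of cells enriched on Percoll after perfusion and enzymatic dissociation of a hemisphere. In blood there was 1 sample each of Hom and Het metastasis-bearing mice and of Hom and Het naive mice. Metastases had been started by carotid injection of E0771 cells, a mouse breast cancer line, about 2 weeks earlier. CCR2 is the receptor that draws monocytes out of the bone marrow. Whether Het and Hom in blood refer to CCR2 or to Cx3cr1, the other gene mutated in the study's mice, is not stated in the labels, nor is it stated whether same-genotype brain hashtags came from different animals. All brain samples thus carried at least 1 mutant CCR2 allele, and no wild-type brain was in the pool.

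The promoter sequences show which of these genes carry the letters of a heat shock element near their start. Windows of 250 bases before to 50 bases after the start were found for 7 of the 10 genes in the RefSeq table (GRCm38.p6), in 12 windows. Hspa8, Hsp90aa1 and Hsp90ab1 were the other 3. The 2-unit cores GAANNTTC and TTCNNGAA, each of which reads the same on both strands, were held by 7.86% and 8.52% of all 32851 windows. The 3-unit form, in which both cores overlap by 1 unit, was searched on both strands and was held by 0.603% of windows. Of the 7 genes, 6 had a match in at least 1 window, and the 3-unit form was in the windows of Hsph1, Hspe1 and Hspd1. Hspe1 and Hspd1 lie head to head, and the element of one Hspd1 window is the same stretch as that of Hspe1. Neither window of Dnajb1 held these letters. The 5 stretches of 100 bases below, written 5′ to 3′ on the gene's strand, hold the matches, with matched bases in capitals. They lie at chr5:149636287-149636386 (minus strand, Hsph1), chr4:40722318-40722417 (plus strand, Dnaja1), chr1:55088028-55088127 (plus strand, Hspe1), chr17:34972187-34972286 (minus strand, Hspa1a) and chr17:34959269-34959368 (minus strand, Hspa1b).
Hsph1: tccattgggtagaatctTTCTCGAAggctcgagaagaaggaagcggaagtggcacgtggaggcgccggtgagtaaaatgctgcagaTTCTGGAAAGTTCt
Dnaja1: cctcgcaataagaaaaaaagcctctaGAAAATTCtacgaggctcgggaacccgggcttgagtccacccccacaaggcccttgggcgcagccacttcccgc
Hspe1: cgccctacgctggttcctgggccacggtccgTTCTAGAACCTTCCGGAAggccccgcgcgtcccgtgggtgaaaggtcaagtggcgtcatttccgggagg
Hspa1a: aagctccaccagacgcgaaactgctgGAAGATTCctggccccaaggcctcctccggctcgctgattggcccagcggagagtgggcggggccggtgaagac
Hspa1b: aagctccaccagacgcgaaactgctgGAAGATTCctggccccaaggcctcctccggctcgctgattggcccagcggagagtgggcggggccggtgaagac
The stretches of Hspa1a and Hspa1b were identical at 100 of 100 bases, and their whole windows at 296 of 300. These near-identical copies can share reads, so their separate counts are uncertain.

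The 3 tables held 16328 cells with 13757 different barcodes, because some barcodes stood in more than 1 table. The 11063 cells used here had a barcode found in 1 table alone, and hashtags of that table made up at least 0.5 of their hashtag counts. The sum of corrected counts ran from 4420428 to 9267629 per sample. Levels are given as corrected counts of a gene summed over the cells of an authors' cluster in a sample, per 10000 such counts. In brain, 5 of 9 clusters had at least 20 cells in every sample. Cluster 1 (1232 cells) was microglia-like, with 10 of 10 microglia markers raised at least 2-fold over the other clusters. Cluster 0 (1236 cells) was led by mitochondrial genes, Xist and Neat1, held between 1486 and 1598.5 UMIs per cell at the median, and stayed unnamed. Clusters 3, 4 and 6 held markers of more than 1 class and stayed unnamed too. Cluster 3 was led by MHC class II genes, Apoe and Pf4. Cluster 4 was led by Ccl5, Gzma and haemoglobin genes, and cluster 6 by Flt1, Ly6c1, Cldn5 and Mgp, so red cell RNA stood beside lymphocyte RNA in cluster 4 and fibroblast markers beside endothelial ones in cluster 6.

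In microglia-like cells 4 of the 10 chaperones rose in CCR2-/- brain (limma, adjusted p at most 0.05), and none fell. They were Hspa8, Hsp90ab1, Dnaja1 and Hsph1. Among all 10713 genes tested in this cluster 0.271% rose and 0.261% fell. All 10 members had a higher mean log2 level in CCR2-/- cells, with a median difference of 0.40, against -0.04 over all genes tested. In the other 4 clusters no member passed the test, and the question there was whether the levels moved the same way.

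Hspa8, the constitutive Hsp70 that also strips clathrin coats from vesicles, stood at 19.0 and 15.5 per 10000 in the CCR2-/- samples of the microglia-like cluster, against 9.66 and 10.6 in the CCR2+/- samples. Both CCR2-/- samples lay above both CCR2+/- samples, with a log2 difference of 0.76 ± 0.108 (SE; limma, adjusted p = 0.000778). The same order held in 3 further clusters. In cluster 6 its level was 12.4 and 16.9 in CCR2-/- samples, against 8.15 and 9.35 in CCR2+/- samples. In cluster 4 it was 13.1 and 11.7 in CCR2-/- samples, against 9.03 and 8.49 in CCR2+/- samples. The groups of cluster 3 lay closer together, at 16.1 and 16.8 in CCR2-/- samples and 14.7 and 13.7 in CCR2+/- samples. Cluster 0 was the exception, since the groups overlapped there, at 10.8 and 8.95 in CCR2-/- samples and 8.23 and 9.01 in CCR2+/- samples. Its levels rest on few UMIs. In CCR2-/- sample 1 its 256 cells had a median of 1486 UMIs but 1302990 corrected counts in all. The part of this in the overlap was not tested.

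Hsp90ab1, the constitutive cytosolic Hsp90, had 10.7 and 12.6 per 10000 in CCR2-/- microglia-like cells, against 7.03 and 7.68 in CCR2+/- cells. The groups did not overlap, and the log2 difference was 0.66 ± 0.101 (SE; limma, adjusted p = 0.00108). Without CCR2+/- sample 1 the call was lost (adjusted p = 0.0620). In cluster 6, where its level was highest of the 5 clusters in every sample, it stood at 16.7 and 21.7 in CCR2-/- samples, against 11.8 and 10.9 in CCR2+/- samples. In cluster 3 it stood at 12.1 and 16.0 in CCR2-/- samples, against 9.21 and 9.004 in CCR2+/- samples. Cluster 4 had the same order with a smaller gap, 12.04 and 12.3 in CCR2-/- samples and 8.76 and 10.4 in CCR2+/- samples. In cluster 0 the groups overlapped, at 8.90 and 7.60 in CCR2-/- samples and 7.73 and 8.92 in CCR2+/- samples.

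Dnaja1, an Hsp40 that delivers clients to Hsp70, had 2.76 and 2.36 per 10000 in CCR2-/- microglia-like cells, against 1.81 and 1.78 in CCR2+/- cells. Its log2 difference was 0.51 ± 0.102 (SE; limma, adjusted p = 0.0148), and the groups did not overlap. The call was lost without CCR2-/- sample 1 (adjusted p = 0.116) and without CCR2+/- sample 1 (adjusted p = 0.0692). In cluster 6 it stood at 3.95 and 4.94 in CCR2-/- samples, against 2.61 and 2.70 in CCR2+/- samples. In cluster 4 the levels were 4.56 and 5.25 in CCR2-/- samples and 3.99 and 3.78 in CCR2+/- samples, again without overlap. Cluster 3 had 2.40 and 2.82 in CCR2-/- samples and 2.39 and 1.91 in CCR2+/- samples, which just failed to meet. In cluster 0 the levels overlapped, at 3.32 and 2.77 in CCR2-/- samples and 2.78 and 3.02 in CCR2+/- samples.

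Hsph1, the Hsp110 that exchanges nucleotide on Hsp70, was a low gene, with 51 and 89 corrected counts in CCR2-/- microglia-like cells and 17 and 27 in CCR2+/- cells. Per 10000 this was 0.280 and 0.287 in CCR2-/- cells, against 0.0838 and 0.113 in CCR2+/- cells, without overlap. The log2 difference of 1.498 ± 0.241 (SE; limma, adjusted p = 0.00157) was the largest among the 10 members in that cluster. With cells thinned to 1000 corrected counts it was 1.68 and no longer called (adjusted p = 0.617 by limma). In cluster 3 both CCR2-/- samples were above, at 0.207 and 0.353, against 0.110 and 0.0531 in CCR2+/- samples. Cluster 4 had 0.425 and 0.378 in CCR2-/- samples, against 0.105 and 0.245 in CCR2+/- samples. In clusters 0 and 6 one CCR2-/- sample lay above and the other below both CCR2+/- samples.

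**Figure D1:**
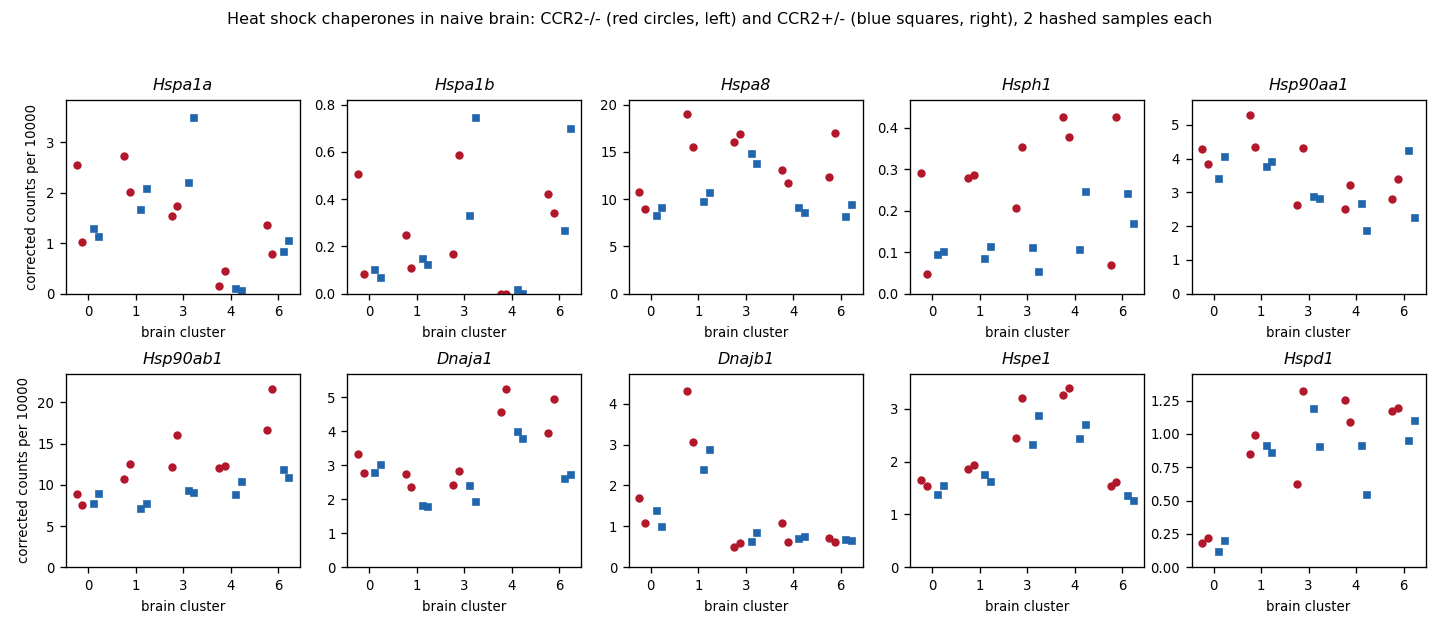
Levels of the 10 chaperones in corrected counts per 10000 (vertical axes, linear, from 0) in the 5 brain clusters (horizontal axes), with 1 point per hashed sample, CCR2-/- as red circles and CCR2+/- as blue squares. The red points of Hspa8, Hsp90ab1 and Dnaja1 lie above the blue ones in clusters 1, 3, 4 and 6 and overlap them in cluster 0. Those of Dnaja1 do so only just in cluster 3, where the nearest points are at 2.40 and 2.39.

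Of the 6 members that did not pass in microglia-like cells, Dnajb1, the stress-inducible Hsp40, came closest. It had 4.32 and 3.05 per 10000 in CCR2-/- cells, against 2.38 and 2.87 in CCR2+/- cells (log2 difference 0.48 ± 0.124, SE; limma, adjusted p = 0.0845). Its level was higher in this cluster than in the other 4 tested clusters in every sample. In cluster 3 the order was turned, with 0.498 and 0.588 in CCR2-/- samples and 0.615 and 0.850 in CCR2+/- samples. In clusters 0, 4 and 6 the groups overlapped. Hsp90aa1, the inducible cytosolic Hsp90, had 5.29 and 4.36 in CCR2-/- microglia-like cells, against 3.74 and 3.89 in CCR2+/- cells (log2 difference 0.33, adjusted p = 0.194 by limma). The groups of both genes did not overlap in this cluster, and those of Hsp90aa1 overlapped in the other 4 clusters.

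Neither of the inducible Hsp70 genes was called in any of the 5 clusters. Hspa1a overlapped between genotypes in microglia-like cells, at 2.73 and 2.01 per 10000 in CCR2-/- cells and 1.66 and 2.08 in CCR2+/- cells. In cluster 3 both CCR2-/- samples were below, at 1.53 and 1.73, against 2.20 and 3.48 in CCR2+/- samples (log2 difference -0.74 ± 0.255, SE; limma, adjusted p = 0.427). In cluster 4, where it was lowest of the 5, the CCR2-/- samples had 0.157 and 0.445 and the CCR2+/- samples 0.0875 and 0.0491. The 4 values of cluster 4 rest on 7, 20, 5 and 1 corrected counts. Hspa1b overlapped between genotypes in all 5 clusters, and had 0, 0, 1 and 0 corrected counts in cluster 4.

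Neither gene of the mitochondrial pair was called. Hspe1, the Hsp10 lid of the chaperonin, had 1.86 and 1.94 per 10000 in CCR2-/- microglia-like cells, against 1.75 and 1.61 in CCR2+/- cells (log2 difference 0.18, adjusted p = 0.656 by limma). Its CCR2-/- samples also lay above in clusters 4 and 6. Hspd1, the Hsp60 ring, overlapped in microglia-like cells at 0.850 and 0.991 in CCR2-/- cells and 0.907 and 0.861 in CCR2+/- cells. Its CCR2-/- samples lay above in clusters 4 and 6, where the log2 differences were 0.69 and 0.21.

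Outside the microglia-like cluster no member was called by limma, although several had an unadjusted p under 0.05. By the adjusted p, 0%, 0.201%, 0% and 0.105% of all genes rose in clusters 0, 3, 4 and 6. An unadjusted p under 0.05 was reached in cluster 0 by 0 of 10 members, and by 550 of all 9889 genes. In cluster 3 it was 3 of 10 members, against 613 of 6974 genes; Hsp90ab1 and Hsph1 were above in CCR2-/- samples and Hspa1a below. In cluster 4 it was 4 of 9 members, Hspa1a, Hspa8, Hsph1 and Hspd1, against 285 of 7115 genes. In cluster 6 it was 3 of 10, Hspa8, Hsp90ab1 and Dnaja1, against 699 of 9485 genes. The median differences of the members were 0.21, 0.17, 0.37 and 0.19 in clusters 0, 3, 4 and 6, against -0.04, 0.11, 0.01 and -0.08 over all genes tested there.

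Whether the shift was shared was asked first with the mean log2 level over the 5 clusters of each sample. Hspa8 rose by 0.48 ± 0.0555 (SE; limma, adjusted p = 0.0465) and was the only gene called of 5533, or 0.0181%. With cells thinned to 1000 corrected counts it was not called (0.52, adjusted p = 0.1205 by limma). Hsp90ab1 had a difference of 0.47 (adjusted p = 0.0554), Dnaja1 of 0.38 (adjusted p = 0.184) and Hsph1 of 0.88 (adjusted p = 0.284) in the same limma fit. All 9 members that could be tested had higher means in CCR2-/- brain, with a median of 0.34, against 0.01 over all genes. With cluster 0 left out, a choice made after its overlapping values were seen, both Hspa8 (0.55, adjusted p = 0.00484) and Hsp90ab1 (0.59, adjusted p = 0.00973) rose by limma, among 0.338% of 5621 genes. Dnaja1 then missed the threshold (0.46, adjusted p = 0.0546).

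The order of the samples was also counted, without a model. Both CCR2-/- samples lay above both CCR2+/- samples in 4 of 5 clusters for Hspa8, Hsp90ab1 and Dnaja1, in 3 for Hsph1 and Hspe1, in 2 for Hspd1 and in 1 for Hsp90aa1, Dnajb1 and Hspa1a. For Dnaja1 cluster 3 was a near tie, with the nearest samples at 2.40 and 2.39 per 10000. Both CCR2-/- samples lay below in 1 cluster, cluster 3, for Dnajb1 and Hspa1a. Among the 5533 genes measured in every cluster, 0.922% (51 genes) had that order in at least 4 clusters, a threshold set after the values were seen. A further 247 genes had it in 3 clusters and 958 in 2. The clusters share their samples, so they are not independent, and an exact permutation test of 2 samples against 2 cannot go below p = 0.333. The summed level of the 10 genes was 48.0 and 43.2 per 10000 in CCR2-/- microglia-like cells, against 29.2 and 31.6 in CCR2+/- cells. It was 38.4 and 38.4 in CCR2-/- samples of cluster 4, against 28.7 and 28.8 in CCR2+/- samples. In cluster 0 the sums overlapped, at 34.1 and 27.2 in CCR2-/- samples and 26.5 and 29.0 in CCR2+/- samples.

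**Figure D2:**
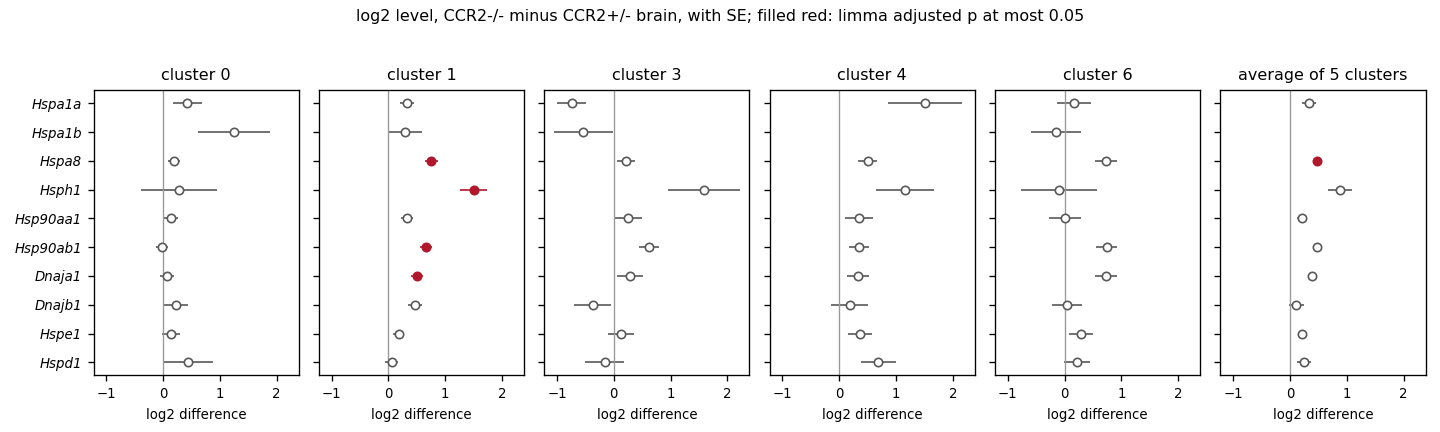
Differences in log2 level, CCR2-/- minus CCR2+/- (horizontal axes), for each chaperone (rows) in 5 brain clusters and for their average, with bars of 1 SE; filled red points have a limma adjusted p of at most 0.05. Cluster 1 has 4 filled points, Hspa8, Hsph1, Hsp90ab1 and Dnaja1, and the average has 1, Hspa8.

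The difference of the shift between clusters was tested directly, within samples. Over the 10 pairs of clusters, 96 tests of members gave 0 calls by limma, and 0% of all genes were called in each pair. An unadjusted p under 0.05 was reached by 3 of the 96, while 4.29% to 7.37% of all genes reached it in a pair, so nothing is read from these 3. The lowest adjusted p of a member was 0.658. The intervals were wide, so these tests do not show that the clusters moved alike. For Hspa8 the shift of the microglia-like cluster minus that of cluster 0 was 0.57 (95% interval -0.13 to 1.27). For Hsp90ab1 it was 0.67 (-0.09 to 1.44), and for Dnaja1 0.44 (-0.16 to 1.03). Of the 10 pairs, 6 were added after the data had been seen.

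The small clusters, left out of the tests for having under 20 cells in a sample, are given as levels only. Cluster 8 was led by the choroid plexus genes Enpp2 and Ttr. It held between 4 and 10 cells a sample and had Hspa8 at 11.4 and 12.3 per 10000 in CCR2-/- samples, against 7.14 and 6.38 in CCR2+/- samples. In cluster 7, led by the smooth muscle genes Acta2 and Tagln, Hspa8 stood at 14.0 and 15.0 in CCR2-/- samples and 13.7 and 9.41 in CCR2+/- samples. In cluster 5, led by B cell genes, it overlapped at 11.5 and 6.39 in CCR2-/- samples and 2.52 and 6.84 in CCR2+/- samples. In cluster 2, led by neutrophil genes, its level overlapped at 1.22 and 4.69 in CCR2-/- samples and 2.05 and 2.65 in CCR2+/- samples.

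Of 57 further genes of the heat shock pathway, 53 could be tested in microglia-like cells; 3 rose, 0 fell, and the median difference was 0.05. They were Stip1, the adaptor that joins Hsp70 to Hsp90 (log2 difference 0.77, adjusted p = 0.0196), St13, an Hsp70 cofactor (0.51, adjusted p = 0.0147), and P4ha1, a collagen prolyl hydroxylase (0.50, adjusted p = 0.0274), all by limma. Stip1 had 0.455 and 0.513 per 10000 in CCR2-/- cells, against 0.276 and 0.288 in CCR2+/- cells. None of the list was called in clusters 0, 3, 4 and 6. An unadjusted p under 0.05 was reached there by 3 of 52, 7 of 52, 3 of 48 and 4 of 54 of its genes, against 550 of 9889, 613 of 6974, 285 of 7115 and 699 of 9485 of all genes.

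The 5 genes whose levels followed the members' mean most closely were Stip1, Cacybp, Calr, Ptges3 and Tmbim6. Their Pearson correlations were 0.85, 0.82, 0.81, 0.76 and 0.74 over 20 points (4 samples in each of 5 clusters, after taking off each cluster's mean), among 5524 genes ranked. The points of a sample share its handling and those of a cluster its depth, so the correlations are descriptions. Stip1, Cacybp and Ptges3 were on the pathway list, and Calr, a chaperone of the endoplasmic reticulum, was on another. In cluster 4 Stip1 stood at 0.694 and 0.823 per 10000 in CCR2-/- samples, against 0.367 and 0.343 in CCR2+/- samples. In cluster 0 it overlapped, at 0.107 and 0.106 in CCR2-/- samples and 0.0994 and 0.118 in CCR2+/- samples.

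Lists tied to other kinds of stress or handling moved beside the chaperones, and their part in the result was not tested. Chaperones of the endoplasmic reticulum had higher means in CCR2-/- microglia-like cells in 17 of 17 cases, with 5 that rose and a median of 0.28. Of all 10713 genes tested there, 4540 had higher means and 29 rose. The summed level of these chaperones was 57.7 and 61.6 per 10000 in CCR2-/- cells, against 42.5 and 46.8 in CCR2+/- cells. In cluster 0 it did not overlap either, at 39.5 and 39.0 in CCR2-/- samples and 32.3 and 35.3 in CCR2+/- samples. Higher means were found for 14 of 17, 12 of 17, 11 of 16 and 12 of 17 of them in clusters 0, 3, 4 and 6, with 0 called. Over all genes it was 4548 of 9889, 4242 of 6974, 3614 of 7115 and 3908 of 9485. The cold-inducible RNA-binding genes Cirbp and Rbm3 both fell in microglia-like cells. They summed to 4.16 and 3.29 in CCR2-/- cells, against 6.00 and 5.13 in CCR2+/- cells. Their median differences were -0.71, -0.76 and -1.02 in clusters 3, 4 and 6, in which neither passed the test, and -0.06 in cluster 0. Immediate early and dissociation genes, such as Fos and Jun, had mostly lower means in CCR2-/- samples. Of 19 such genes, 12 had lower means in microglia-like cells, where 0 were called, 4 had an unadjusted p under 0.05 and the median was -0.07. Their summed level there was 701 and 645 in CCR2-/- cells, against 732 and 721 in CCR2+/- cells. Of all 10713 genes tested in that cluster, 6173 had lower means and 949 an unadjusted p under 0.05. The 12 of 19 are thus near the share of all genes. In cluster 0, where the chaperones overlapped, 17 of 19 had lower means, 1 fell and 9 had an unadjusted p under 0.05. In cluster 3 that was 15 of 19, with 0 called, 8 with an unadjusted p under 0.05 and a median of -0.30. In clusters 4 and 6 it was 13 of 18 and 11 of 18, with 0 called and 4 and 1 with an unadjusted p under 0.05. Over all genes 3501 of 7115 and 5577 of 9485 had lower means there. In clusters 0 and 3 it was 5341 of 9889 and 2732 of 6974 of all genes. In the average over 5 clusters 16 of 18 had lower means, with 0 called and 9 with an unadjusted p under 0.05. Of all 5533 genes, 2599 had lower means and 436 an unadjusted p under 0.05. Glucocorticoid-induced genes also had lower means in CCR2-/- samples. In microglia-like cells that was 4 of 4, of which 1 fell, with a median of -0.53. In cluster 6 it was 5 of 5, with 0 called, all 5 with an unadjusted p under 0.05 and a median of -1.31, and in the average it was 4 of 4.

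Red cell RNA also differed in the microglia-like cluster, where 3 of 4 haemoglobin genes rose. They summed to 14.1 and 5.21 per 10000 in CCR2-/- cells, against 0.690 and 3.43 in CCR2+/- cells. In cluster 6 they summed to 0.795 and 0.830 in CCR2-/- samples and 42.3 and 0.570 in CCR2+/- samples. The part of red cell RNA in the result was not tested. The cells of the microglia-like cluster were also somewhat deeper in CCR2-/- samples, at medians of 9874 and 10994.5 UMIs, against 9267 and 9673 in CCR2+/- samples. The part of depth in the result was not tested. Every cell was thinned to 1000 corrected counts, but these had already been corrected for depth, so thinning cannot tell what depth did. Hspa8 (log2 difference 0.82) and Hsp90ab1 (0.66) were then still called in that cluster. Hsph1 (1.68; limma, adjusted p = 0.617) and Dnaja1 (0.33, adjusted p = 0.855) were not, on fewer counts.

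**Figure D3:**
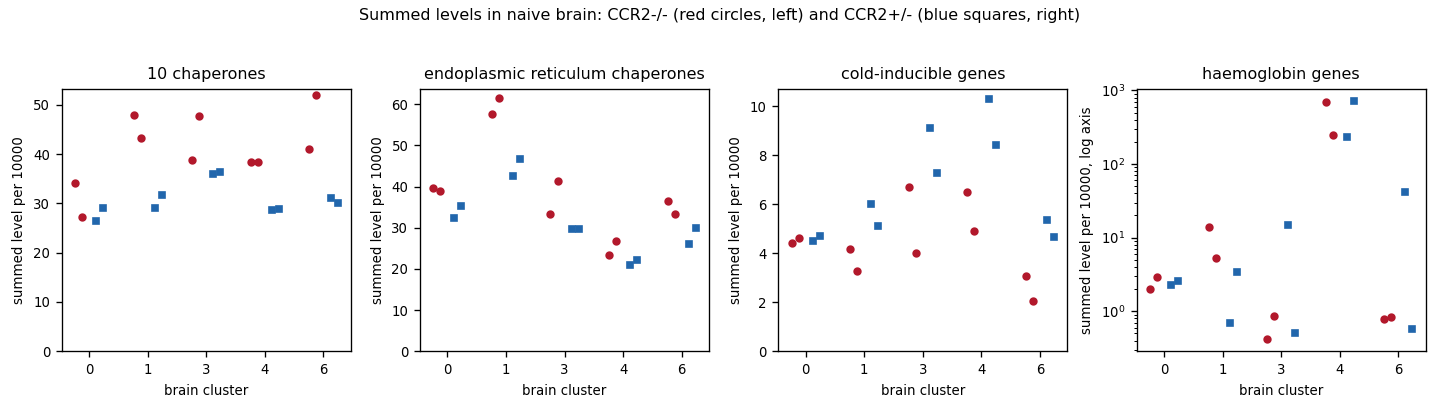
Summed levels per 10000 of the 10 chaperones, 17 endoplasmic reticulum chaperones, 2 cold-inducible genes and 4 haemoglobin genes (log axis for the last) in 5 brain clusters, with 1 point per hashed sample, CCR2-/- as red circles and CCR2+/- as blue squares. In cluster 1 the red points lie above the blue ones for both chaperone lists and for haemoglobin, and below them for the cold-inducible genes.

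In blood each group was 1 sample, so Hom and Het were compared without a test, by a ratio of levels past 1.5-fold among genes with at least 20 corrected counts. Few members passed, at most 1 in a cluster, and those that did were higher in Hom. In metastasis-bearing blood the monocyte cluster 2 had 1 of 9 members past 1.5-fold (10.7% of all genes), Hspa1a, on 20 corrected counts in Hom and 8 in Het. Cluster 7, with 24 Hom and 35 Het cells, had 6 of 6 NK cell markers raised, but also 4 of 5 red cell markers. It had 1 of 6 members past 1.5-fold (23.9% of all genes), Hsp90ab1, at 11.6 per 10000 in Hom and 5.15 in Het. None passed in neutrophils (cluster 0, 11.5% of all genes), B cells (cluster 1, 9.1%), T cells (cluster 3, 12.8%) or the low-RNA cluster 4 (39.9%). In naive blood 1 of 8 members passed in neutrophils, Hspe1 (cluster 0, 25.6% of all genes). The low-RNA cluster 4 had 1 of 7, Dnajb1 (30.4% of all genes), and platelets had 1 of 5, Hsp90aa1 (cluster 6, 18.2%). None passed in naive B cells (cluster 1, 6.78%), T and NK cells (cluster 2, 11.8%) or monocytes (cluster 3, 14.4%). These counts are read against the shares of all genes beside them, which hold both directions. Of all genes past 1.5-fold, 203 were higher and 590 lower in Hom in metastasis-bearing cluster 2, and 90 and 229 in cluster 7. In naive blood these were 1125 and 528 in cluster 0, 839 and 609 in cluster 4, and 57 and 91 in cluster 6. The intervals included 1 for Hspa1a (0.703 to 4.37) and Dnajb1 (0.849 to 7.76), but not for Hspe1, Hsp90ab1 and Hsp90aa1. They understate counting error where cells held few UMIs. In naive platelets Hsp90aa1 had 31 corrected counts in Hom and 20 in Het, at medians of 763 and 915 UMIs per cell. Its interval is thus too narrow, and nothing is read from its lying above 1. No direction is read from 1 member a cluster.

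The genes called in microglia-like cells are given here in blood. Hspa8 was above in Hom in 6 of 6 clusters of metastasis-bearing blood, by ratios of 1.06 to 1.44, and in 4 of 6 of naive blood, by ratios of 0.7999 to 1.42. In metastasis-bearing monocytes it stood at 18.6 per 10000 in Hom, against 14.6 in Het. That ratio was 1.28 (95% interval 1.22 to 1.35, for counting error of corrected counts only). In metastasis-bearing cluster 3 the interval of Hspa8 (0.946 to 1.20) included 1. Hsp90ab1 was above in Hom in 6 of 6 clusters of metastasis-bearing blood, by ratios of 1.005 to 2.24. In naive blood it was above in 3 of 6. Its ratio in metastasis-bearing monocytes was 1.005 (0.928 to 1.09), and its intervals in clusters 3 and 4 also included 1. Dnaja1 was above in Hom in 4 of 6 clusters of each. By cluster, 42.4% to 54.5% of all genes were above in Hom in metastasis-bearing blood and 41.8% to 67.9% in naive blood. The share of all genes above in every cluster was not counted. Metastasis-bearing cluster 7, which gave the largest ratio of Hsp90ab1, 2.24 (1.70 to 2.99), held 134 corrected counts of it in Hom and 83 in Het.

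**Figure D4:**
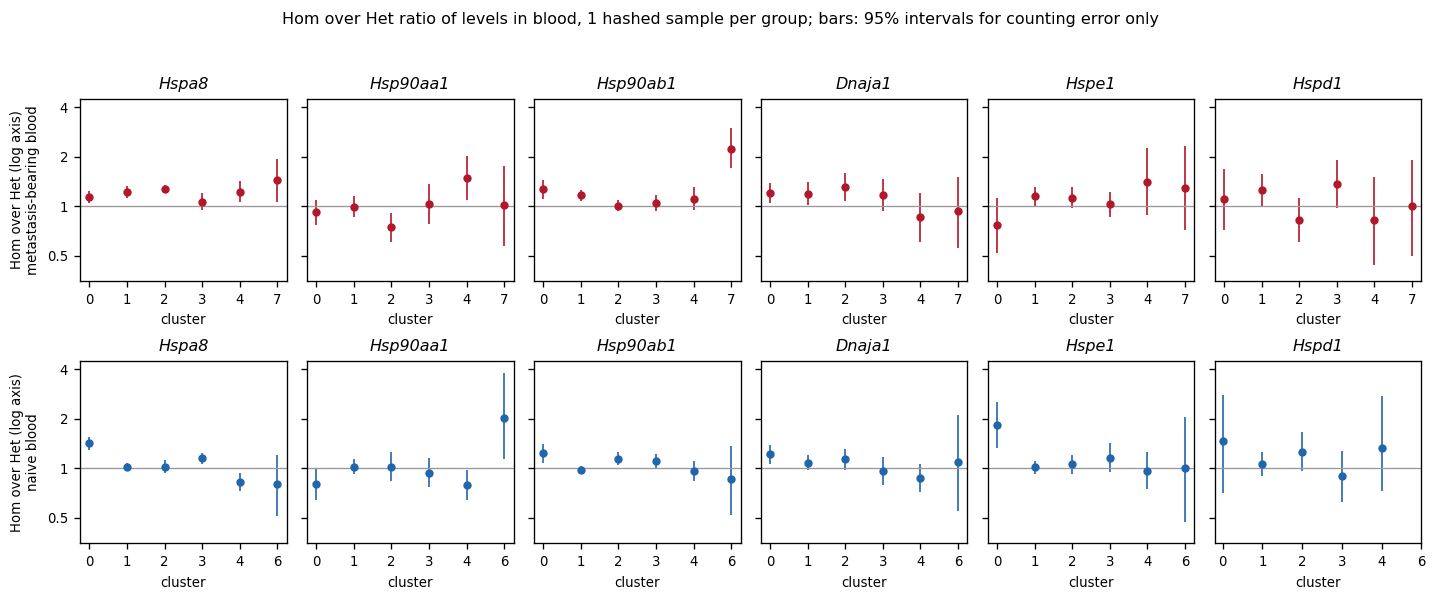
Ratio of Hom over Het levels (vertical axes, log scale) of the 6 chaperones measured in at least 5 clusters of each blood table, by authors' cluster. Bars are 95% intervals for counting error of corrected counts only. Metastasis-bearing blood is in red above, naive blood in blue below. Hspa8 and Hsp90ab1 lie above 1 in all 6 clusters of metastasis-bearing blood, Hsp90ab1 only just so in cluster 2 (1.005).

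Levels in metastasis-bearing blood were set beside those in naive blood for clusters of the same cell class, a comparison added after the values were seen. The tables were normalised separately. For 845 barcodes that stood in both, the members differed by a log2 of -0.01 to 0.11 between tables. For the same barcodes 0 of 9410 genes differed by 1.5-fold. These barcodes were not split by cluster and are not among the cells used here. The part of normalisation in the levels compared here was not tested. With 1 sample a group there was no test. Both metastasis-bearing levels lay below both naive levels for 8 of 10 members in monocytes (38.3% of all genes), 7 of 8 in B cells (26%), 5 of 8 in T cells (21.8%) and 3 of 9 in neutrophils (13.7%). The naive T cell cluster also holds NK cells. In neutrophils 2 of 9 members, Hspa1b and Hspd1, lay above in metastasis-bearing blood, as did 26.8% of all genes there. The monocyte clusters differ in make-up as well: 8 of 8 Ly6c-low monocyte markers were raised in the naive one and 4 of 8 in the metastasis-bearing one.

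Dnaja1 lay below in all 4 classes. Hsph1 did so too, but was under 20 corrected counts in neutrophils, with 4 and 6 in metastasis-bearing Hom and Het and 4 and 7 in naive Hom and Het. In monocytes Dnaja1 had 1.39 per 10000 in Hom and 1.07 in Het metastasis-bearing blood, against 2.30 in Hom and 2.40 in Het naive blood. In B cells Dnaja1 had 1.84 and 1.55 in metastasis-bearing Hom and Het, against 3.01 and 2.78 in naive Hom and Het. Both inducible Hsp70 genes lay below in monocytes. Hspa1a had 0.0851 and 0.0511 in metastasis-bearing Hom and Het monocytes, against 0.338 and 0.325 in naive Hom and Het monocytes. Hspa1b had 0.0340 and 0.0128 in metastasis-bearing Hom and Het, against 0.229 and 0.280 in naive Hom and Het, on 8, 2, 21 and 25 corrected counts. Hspa8 did not follow in monocytes, at 18.6 and 14.6 in metastasis-bearing Hom and Het, against 17.2 and 15.0 in naive Hom and Het.

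The cold-inducible genes Cirbp and Rbm3, taken as their summed level, lay above in metastasis-bearing blood in all 4 classes. They summed to 11.6 and 10.6 per 10000 in metastasis-bearing Hom and Het monocytes, against 4.10 and 3.66 in naive Hom and Het monocytes. In B cells they summed to 10.3 and 11.97 in metastasis-bearing Hom and Het, against 4.85 and 4.71 in naive Hom and Het. Neutrophils had 4.96 and 5.77 in metastasis-bearing Hom and Het, against 2.45 and 1.70 in naive Hom and Het. Of all single genes, 14.8% lay above in metastasis-bearing monocytes, 17.2% in B cells, 19.4% in T cells and 26.8% in neutrophils. The part of the cold-inducible genes in the result was not tested. Metastasis cannot be told apart from any other difference between the 2 pairs of samples.

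**Figure D5:**
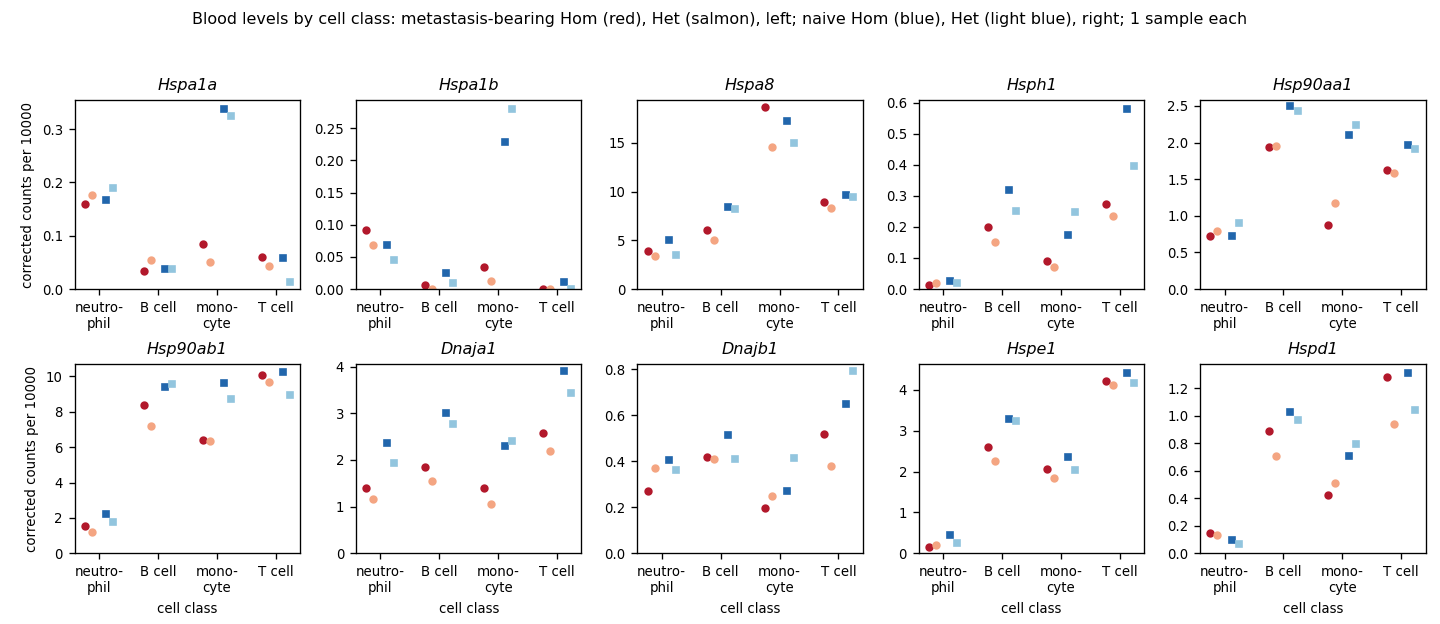
Levels of the 10 chaperones in corrected counts per 10000 (vertical axes, linear, from 0) in 4 blood cell classes, with 1 point per sample; metastasis-bearing Hom (red) and Het (salmon) as circles on the left, naive Hom (blue) and Het (light blue) as squares on the right. The circles of Dnaja1 lie below the squares in all 4 classes, and those of Hspa8 overlap the squares in monocytes.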

How the data were processed

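Per the submitters' processing notes, reads of the Chromium libraries went through Cell Ranger 3.1 with mm10. The deposited tables hold the natural log of 1 plus a count corrected for depth by SCTransform, which the authors normalised separately in each of 3 tables. Corrected counts were rebuilt from the deposited values; the largest distance from a whole number was 2.18e-11. The authors' corrected total per cell, a score in the deposited cell descriptions, equalled the rebuilt sum in every cell. Cluster numbers, hashtag classes and counts are those of the deposited cell descriptions. Cells carry a single hashtag, and no doublet caller was run here.

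Members and lists were chosen with earlier results of these data known. All 10 members are named in every comparison, and at most 4 other pathway genes per direction, those of largest change among those called.

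Clear cells numbered 3350 of 5208 in brain, 3694 of 5363 in naive blood and 4019 of 5757 in metastasis-bearing blood. Corrected counts were summed per sample and cluster. Brain sums were fitted on log2((sum + 1) / total) with limma 3.58.1 in R 4.3.3, using a mean-variance trend. Genes needed at least 20 corrected counts, and p-values were adjusted over all genes of the cluster by Benjamini-Hochberg at 0.05. The fit was checked on simulated data. The p-values measure the spread between hashed samples, which may be technical. Blood ratios carry 95% binomial intervals for counting error only, computed on corrected counts as if these were observed UMIs. In naive platelets the 22 Hom cells had a median of 763 UMIs but 80945 corrected counts in all. In naive monocytes the 182 Hom cells had a median of 12085.5 UMIs but 916026 corrected counts in all. Counting error is thus understated where cells held few UMIs and overstated where they held many. TMM factors came from edgeR 4.0.16.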

Additional observations from a re-analysis of the deposited data

Results flagged for a closer look

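Hom and Het differed in opposite directions in metastasis-bearing and naive blood for 7 of 32 pairs of a member and a cell class. No share over all genes is given beside this count, so nothing is read from it. The 7 pairs are listed below. Each of them is given as a ratio of Hom over Het. The difference between the 2 ratios was not tested, since each group was 1 sample, and in 0 of 32 pairs did both counting intervals exclude 1. In neutrophils the ratio of Dnajb1 was 0.733 in metastasis-bearing and 1.13 in naive blood, and that of Hspe1 0.767 in metastasis-bearing and 1.83 in naive blood. In B cells the ratio of Hsp90aa1 was 0.992 in metastasis-bearing and 1.02 in naive blood, and that of Hsp90ab1 1.16 in metastasis-bearing and 0.983 in naive blood. In monocytes the ratio of Hsph1, a low gene, was 1.22 in metastasis-bearing and 0.720 in naive blood, and that of Dnaja1 1.30 in metastasis-bearing and 0.961 in naive blood. In T cells the ratio of Dnajb1 was 1.35 in metastasis-bearing and 0.813 in naive blood, where the cluster also holds NK cells.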

How the results depend on the processing

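No paired analysis was possible because the hashtags carry no pairing between genotypes. Leaving out a sample leaves 1 genotype with a lone sample, assumed to vary like the others.

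The number of members called in cluster 1 (4) was 2 with cells thinned to 1000 corrected counts and 2 to 6 with a sample left out; 5 other settings left it within 1.5 times. Leaving out a sample gave 0 to 1 calls in cluster 0, in cluster 3 and in cluster 6, where the mean of the deposited ln values gave 2. The average over 5 clusters (1 call) gave 3 calls with all deposited cells, 0 with thinned cells, where Hspa8 had a log2 difference of 0.52 and an adjusted p of 0.1205, 2 with a pseudocount of 0.5, 4 with mean ln values and 1 to 3 with a sample left out. The average without cluster 0 (2 calls) gave 4 with mean ln values and 1 to 2 with a sample left out. In cluster 1 Hspa8 and Hsph1 were called whichever sample was left out.

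Signs turned only for differences that had not been called. In cluster 0 Hsp90ab1 (-0.01) became 0.0038 with mean ln values, 0.088 with thinned cells and 0.015 with TMM factors. Thinning gave -0.61 for Hspd1 in cluster 0, -0.16 for Hspd1 in cluster 1, -0.20 for Hspe1 in cluster 3, -0.075 for Dnaja1 in cluster 4 and -0.45 for Hspa1a in cluster 6. All deposited cells gave 0.18 for Dnajb1 and 0.29 for Hspd1 in cluster 3, and -0.36 for Hsp90aa1 and -0.020 for Dnajb1 in cluster 6. Hsph1 in cluster 6 became 0.043 with mean ln values and 0.0020 with TMM factors.

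With a sample left out, signs turned within these ranges. In cluster 0 they were -0.23 to 1.08 for Hspa1a, -0.041 to 2.53 for Hspa1b, -0.98 to 1.52 for Hsph1, -0.13 to 0.10 for Hsp90ab1, -0.062 to 0.20 for Dnaja1 and -0.10 to 0.55 for Dnajb1. In cluster 1 they were -0.29 to 0.87 for Hspa1b and -0.054 to 0.16 for Hspd1. In cluster 3 they were -1.33 to 0.25 for Hspa1b, -0.11 to 0.61 for Hsp90aa1, -0.062 to 0.32 for Hspe1 and -0.68 to 0.35 for Hspd1. In cluster 4 Dnajb1 ran from -0.20 to 0.56. In cluster 6 they were -0.21 to 0.56 for Hspa1a, -0.84 to 0.53 for Hspa1b, -1.23 to 1.03 for Hsph1, -0.44 to 0.46 for Hsp90aa1 and -0.065 to 0.16 for Dnajb1. The average of Dnajb1 ran from -0.083 to 0.31.

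In blood the number past 1.5-fold in naive cluster 0 (1) was 0 at 2-fold and 2 with thinned cells. In naive cluster 4 (1) it was 3 with all deposited cells and 0 thinned, and in naive cluster 6 (1) 0 thinned. In metastasis-bearing cluster 0 (0) it was 1 thinned. In cluster 2 (1) it was 0 with all deposited cells, at 2-fold and thinned, and in cluster 7 (1) 2 with all deposited cells. The cause of these moves was not tested. Summing Hspa1a with Hspa1b left the 12 blood counts within 1.5 times.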
